A study of Mus musculus with 12 samples.

Results

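A set of 10 genes of the protein folding machinery of the endoplasmic reticulum (ER) were examined in ventricles of mice that carry human phospholamban (PLN), the small membrane protein that inhibits the calcium pump SERCA2a. The genes were the chaperones Hspa5, Hsp90b1 and Hyou1, the lectin chaperones Calr and Canx, the disulfide isomerases Pdia3, Pdia4 and Pdia6, and the cofactors Dnajb9 and Sdf2l1. They were chosen by name, as members of a textbook group, with earlier results of these data known. Each of the 10 was found among the 33641 genes listed for each sample. All 10 had a mean above 0.5 TPM over the 12 samples, and so all 10 were among the 12526 genes tested. TPM is a share of all transcripts of a sample after correction for gene length, scaled to a sum of 1000000, so levels of different genes can be compared.

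Libraries of polyA RNA that keep the strand were sequenced from 12 whole-ventricle samples, 3 from each ventricle (LV and RV) of each genotype. WT-PLN hearts came from mice with the normal human PLN coding sequence inserted at the start codon of the mouse gene, and R14del-PLN hearts from mice in which that human sequence lacks arginine 14. The study describes the mutant animals as male heterozygotes, which hold an intact and a mutant human allele, with WT-PLN animals as controls. All were 12 to 14 weeks old and the labels give the strain as C57BL/6J, whereas the methods describe a hybrid line from 129/Sv-CP and C57BL/6J chimeras bred to Sox2-Cre mice, in which Cre acts throughout the embryo. A human knock-in sequence and the breeding to Sox2-Cre mice are thus shared by both lines. The heterozygotes came from a further cross of WT-PLN with R14del-PLN homozygotes. The cross behind the WT-PLN controls is not stated, so line and litter cannot be told apart from genotype. The mutant samples are titled as knock-out, and their genotype label gives R14del-PLN. The labels do not say which LV and RV samples came from the same mouse or whether samples were pooled, so p-values measure only the spread between these samples.

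The ER is where membrane and secreted proteins fold, and in cardiomyocytes it is continuous with the sarcoplasmic reticulum in which PLN and SERCA2a reside. The protein of Hspa5 (BiP) binds unfolded chains and also holds the stress sensors of the ER inactive. When unfolded protein accumulates, the sensors ATF6, IRE1 and PERK are released, and the transcription factors ATF6 and XBP1 raise the genes of chaperones and isomerases. This response is called the unfolded protein response. Calreticulin (Calr) and calnexin (Canx) hold newly made glycoproteins by their sugars, and the isomerase of Pdia3 works with them to form disulfide bonds. Calreticulin also binds much of the calcium stored in the ER.

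The promoters of these genes were searched for the elements through which ATF6 and XBP1 are known to act. The ER stress response element has the letters CCAAT, which NF-Y binds, then 9 bases of any kind, then CCACG, which ATF6 binds. It was searched on both strands in the RefSeq promoter windows of GRCm38.p6, from 250 bases before to 50 bases after each transcript start. Windows were given for 9 of the 10 genes, all but Hyou1. The element was present in 5 of these 9 genes, namely Hspa5, Hsp90b1, Calr, Canx and Pdia6, and Hsp90b1 held it at 2 places. Over all 27025 genes with a window, 37 genes or 0.137% held it. Genes of this group are known to be raised by ATF6 and XBP1, so their higher share is not independent evidence. The sequences are shown because they are the letters these 5 genes share. The fixed letters of the element are in capitals and read CCAAT and CCACG on the strand of the gene, or CGTGG and ATTGG where the element lies on the other strand. Each sequence is given on the strand of its gene and ends before the RefSeq start of transcription.
Hspa5, chr2:34772020-34772048, plus strand: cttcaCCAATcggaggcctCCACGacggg
Hsp90b1, chr10:86705598-86705694, minus strand: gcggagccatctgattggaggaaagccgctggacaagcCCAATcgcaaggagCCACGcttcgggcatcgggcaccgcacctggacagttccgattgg
Hsp90b1, chr10:86705528-86705556, minus strand: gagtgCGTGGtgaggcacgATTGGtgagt
Calr, chr8:84847035-84847133, minus strand: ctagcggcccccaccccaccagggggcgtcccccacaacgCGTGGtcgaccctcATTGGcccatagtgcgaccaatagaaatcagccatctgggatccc
Canx, chr11:50325760-50325858, minus strand: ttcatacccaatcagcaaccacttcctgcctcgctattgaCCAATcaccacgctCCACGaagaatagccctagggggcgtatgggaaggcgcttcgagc
Pdia6, chr12:17266486-17266514, plus strand: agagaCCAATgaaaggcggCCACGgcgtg

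The element began 65 bases before the start in Hspa5, at position -65, and lay farthest from the start in Hsp90b1, at -212. In Calr it began at -162, in Canx at -145 and in Pdia6 at -98, and the other copy in Hsp90b1 began at -107. A window is cut to 5 bases on each side of the element where an annotated exon of a member lies close by, as for Hspa5, whose GENCODE gene begins before its RefSeq start. In the 250 bases before the start, Pdia3 and Pdia4 came within 1 of the 10 fixed letters of the element, which 1.51% of all genes did, and those of Dnajb9 and Sdf2l1 within 2. The best partial matches of Pdia3 and Pdia4 are shown in the same way, with the letters at the fixed positions in capitals.
Pdia3, chr2:121413868-121413896, plus strand: cgcagCCAATcggcggctgCCACActgcg
Pdia4, chr6:47813562-47813660, minus strand: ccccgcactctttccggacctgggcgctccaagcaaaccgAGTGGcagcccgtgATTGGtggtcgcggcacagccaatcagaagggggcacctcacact

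The box CCAAT alone stood in the windows of all 9 genes, against 41.1% of all genes, and the box CCACG in 8 of 9, against 35.5%. These boxes are parts of the full element, so their counts overlap with its count. The element ERSE-II (ATTGG, 1 base of any kind, then CCACG, so that it contains both boxes) and the XBP1 and ATF6 site TGACGTGG (whose last letters overlap the CCACG box read on the other strand) were found in 0 of the 9 windows, against 0.0444% and 0.714% of all genes. The windows were rich in G and C, with 60.3% to 75.7% in the 9 genes against a median of 52.7% over all genes. These are matches of letters in windows of fixed length, and binding at them was not measured here.

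**Figure D1:**
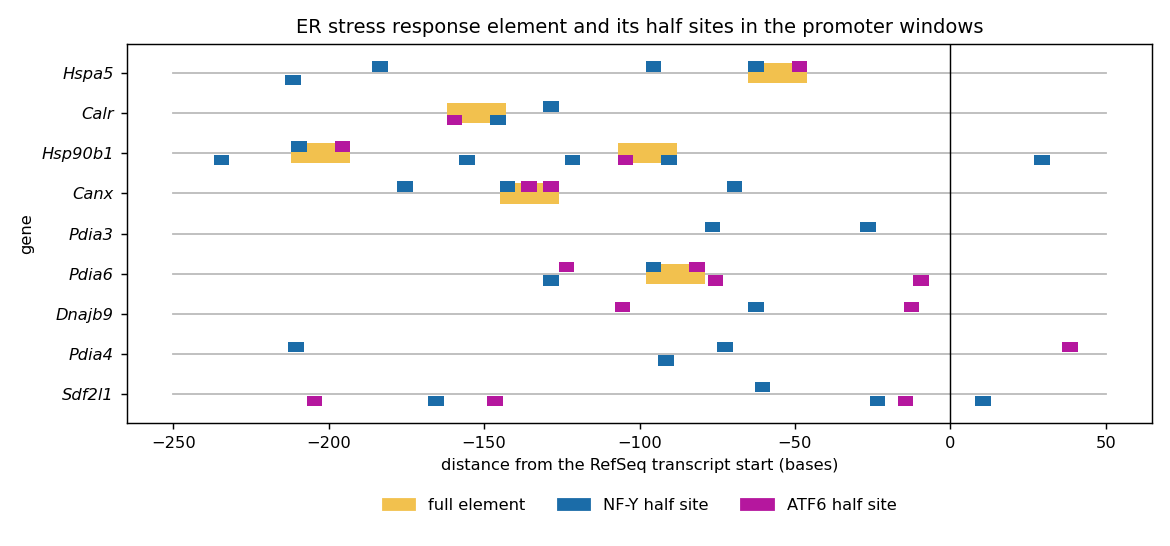
Positions of the ER stress response element (yellow) and of its CCAAT box (blue, bound by NF-Y) and CCACG box (purple, bound by ATF6) in the promoter windows of 9 genes, by distance in bases from the RefSeq start at 0. Boxes above a line are on the strand of the gene and boxes below it on the other strand. Full elements are seen in 5 genes, all of them before the start.

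The 10 genes spanned a wide range of levels in the ventricle. Hspa5 was the highest at a mean of 209 TPM over the 12 samples, followed by Calr at 116, Hsp90b1 at 103 and Canx at 99.3 TPM. The isomerases followed with Pdia3 at 45.02 and Pdia6 at 30.4 TPM. Dnajb9 was at 14.7, Pdia4 at 9.67, Hyou1 at 8.43 and Sdf2l1, the lowest, at 2.78 TPM. Hspa5 thus held 32.8% of the summed TPM of the 10 genes and Sdf2l1 0.437%. Hspa5 ranked 309 by mean level among all genes listed and Sdf2l1 ranked 8734.

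The order was nearly fixed from sample to sample. Hspa5 was 1.63 to 1.97 times the level of Calr in all 12 samples, and Calr was above Hsp90b1 in all 12, by 1.02 to 1.28 times. The levels of Hsp90b1 and Canx did not separate: Hsp90b1 was the higher in 7 of 12 samples, with a median ratio of 1.01. Canx was 1.83 to 3.38 times Pdia3, Pdia3 was 1.30 to 1.57 times Pdia6, and Pdia6 was 1.55 to 2.79 times Dnajb9. Pdia4 exceeded Hyou1 in 11 of 12 samples, and the ranges of these neighbours over the samples overlapped.

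Together the 10 genes took 527 to 828 TPM per sample, or 0.0527% to 0.0828% of all transcripts. Their sum was 634, 692 and 758 TPM in replicates 1 to 3 of the LV of WT-PLN hearts and 527, 555 and 828 TPM in those of R14del-PLN hearts. In the RV it was 583, 566 and 713 TPM in WT-PLN and 569.9, 675 and 549 TPM in R14del-PLN hearts. All 4 groups overlapped, and the highest and the lowest of the 12 samples were both from the LV of R14del-PLN hearts.

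**Figure D2:**
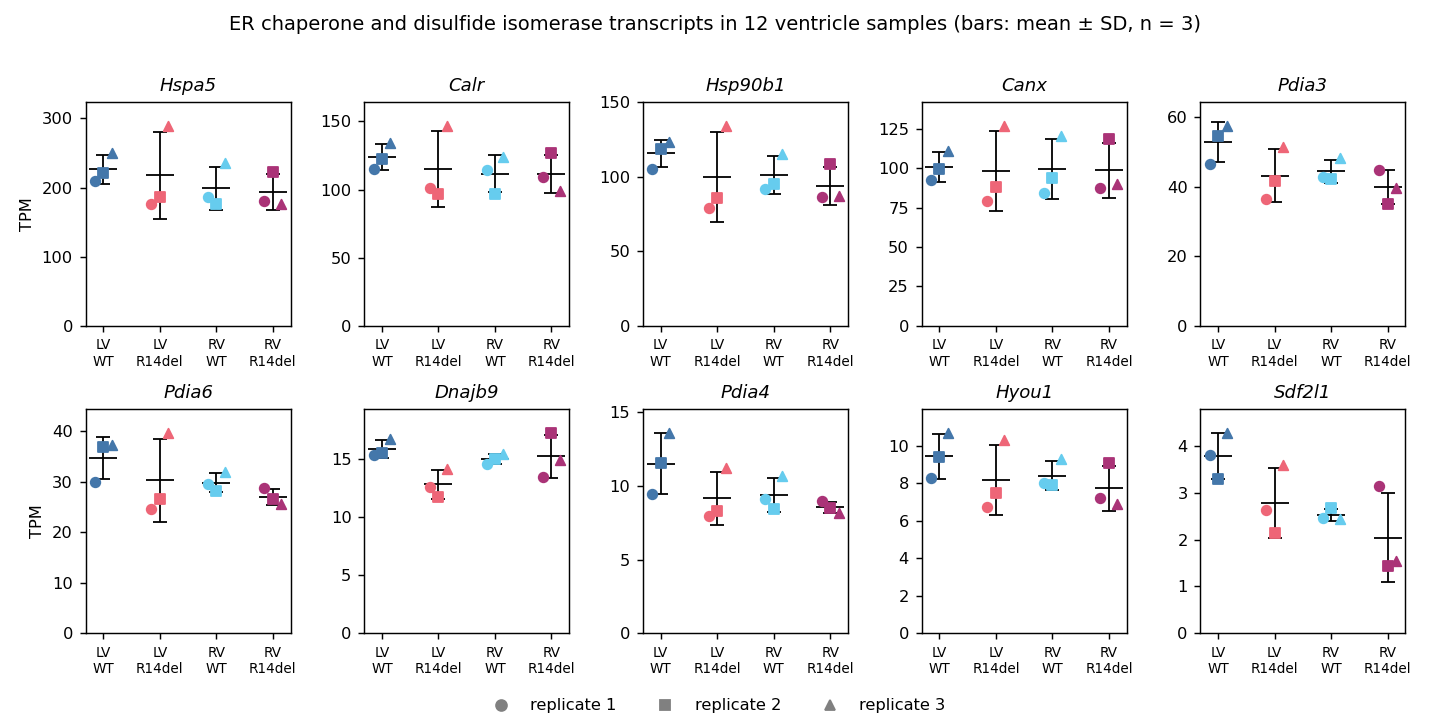
TPM of each of the 10 genes in the 12 samples, with genes ordered by mean level, 1 point per sample and the mean with its SD (n = 3) for each ventricle and genotype (WT, WT-PLN; R14del, R14del-PLN). Replicate 3 of the LV of R14del-PLN hearts is the highest of its group for all 10 genes, and only for Dnajb9 in the LV do the points of the 2 genotypes not overlap.

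Sample differences that ventricle and genotype do not explain were large beside the genotype differences. The 13 mitochondrially encoded protein genes held 37.3% of TPM in replicate 3 of the LV of R14del-PLN hearts and 44.0% to 54.5% in the other 11 samples, and a larger share leaves less for every other gene. That replicate was the highest of its group for all 10 genes, as was replicate 3 of the LV of WT-PLN hearts, which also had the highest summed fibroblast, smooth muscle and atrial cardiomyocyte markers of the 12 samples. Of its atrial sum, 722 TPM were Nppa. The atrial markers Myl7, Myl4 and Sln were highest in replicate 2 of the RV of WT-PLN hearts, at 320, 302 and 36.9 TPM. Both WT-PLN samples numbered 1 had summed Y-linked genes of 0.250 to 0.284 TPM, against 43.5 to 63.7 TPM elsewhere, although male mice were stated. In the names of the deposited data, replicate 3 of the RV of R14del-PLN hearts carried a tag of its own, and the other 11 samples shared 1 tag. The sample labels do not say whether this tag marks a sequencing run. Cardiomyocyte markers summed to 29176 to 44468 TPM, endothelial markers to 431 to 752 TPM, macrophage markers to 60.1 to 107 TPM, and plasma and B cell markers to 0.783 to 2.60 TPM, and no marker was called in any comparison. In tissue samples such as these, fewer cells of a type and less RNA per cell cannot be told apart.

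The effect of R14del-PLN was tested first in the LV. None of the 10 genes was called changed (0 of 10) with limma, where calls needed 2 things, an adjusted p (Benjamini-Hochberg) of 0.05 or less and a change of 1.5-fold or more. Over all tested genes, 0.519% were called. At an unadjusted p of 0.05, 1 of the 10 genes passed, Dnajb9, against 9.60% of all genes. All 10 log2 fold changes were below 0, as were 71.7% of those of all genes, with a median of -0.23 for the 10 and -0.086 for all. With quantile or upper quartile scaling 8 of 10 were below 0, all but Hspa5 and Canx. The medians of the 10 were then -0.12 and -0.11, beside 0.014 and 0.012 for all genes. Fold changes were taken on the log2(TPM + 1) scale, which understates those of low genes such as Sdf2l1.

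Hspa5, the central chaperone, was at 209, 221 and 249 TPM in replicates 1 to 3 of the LV of WT-PLN hearts. In the mutant LV it was at 177, 187 and 289.7 TPM, so the mutant samples lay on both sides of the controls. The log2 fold change was -0.09 (95% interval -0.49 to 0.31, limma adjusted p = 0.930). As a percentage the difference was -6.03%, with an interval of -28.6% to 23.7%, which is inside a change of 1.5-fold in either direction.

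Hsp90b1, the ER form of HSP90 that folds receptors and integrins, was at 105, 119 and 123 TPM in left ventricles of WT-PLN hearts. It was at 79.2, 86.0 and 134 TPM in those of R14del-PLN hearts. Replicates 1 and 2 of the mutant lay below all controls and replicate 3 above all of them. The log2 fold change of -0.25 had a standard error of 0.18 (limma adjusted p = 0.739).

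The LV group means of Calr were 124 ± 9.88 TPM in WT-PLN and 115 ± 27.6 TPM in R14del-PLN hearts (SD, n = 3 each). Those of Canx were 101 ± 9.40 and 98.1 ± 25.5 TPM, and those of Hyou1, whose protein exchanges the nucleotide of BiP, were 9.43 ± 1.20 and 8.17 ± 1.86 TPM (SD, n = 3 each). For all 3 genes the mutant SD exceeded that of the controls and the ranges overlapped. Their log2 fold changes were -0.13 for Calr, -0.07 for Canx and -0.20 for Hyou1, with limma adjusted p from 0.764 to 0.949.

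Among the isomerases, which form and rearrange disulfide bonds, Pdia3 was at 46.4, 54.5 and 57.5 TPM in control left ventricles and 36.4, 41.6 and 51.3 TPM in mutant ones. Only the highest mutant sample reached the range of the controls. Its log2 fold change of -0.30 had a standard error of 0.15 (limma adjusted p = 0.556). Pdia4 had group means of 11.5 ± 2.08 and 9.17 ± 1.81 TPM (SD, n = 3 each) and a log2 fold change of -0.30 (limma adjusted p = 0.580). Pdia6 had means of 34.6 ± 4.18 and 30.2 ± 8.15 TPM (SD, n = 3 each) and a log2 fold change of -0.21 (95% interval -0.56 to 0.14).

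Dnajb9 (ERdj4), a J-domain cofactor that directs BiP to its clients and to the sensor IRE1, was the member whose LV groups separated. Its control samples were at 15.3, 15.4 and 16.7 TPM and its mutant samples at 12.6, 11.7 and 14.2 TPM. All 3 mutant samples were below all 3 controls, which held in this direction for 8.47% of all genes. The group means were 15.8 ± 0.764 and 12.8 ± 1.24 TPM (SD, n = 3 each). On the log2 scale the difference was -0.29 (95% interval -0.54 to -0.03, limma adjusted p = 0.451 over all genes), so Dnajb9 was not called.

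Sdf2l1, an ER-resident partner of BiP and its J-domain cofactors, was at 3.81, 3.28 and 4.27 TPM in control left ventricles and 2.63, 2.13 and 3.59 TPM in mutant ones. Only mutant replicate 3 reached into the range of the controls. Its log2 fold change of -0.35 was the lowest of the 10 (95% interval -0.77 to 0.07, limma adjusted p = 0.614). For 6 of the 10 genes the LV interval lay inside a 1.5-fold change in both directions. For Hsp90b1, Pdia3, Pdia4 and Sdf2l1 it extended beyond a 1.5-fold decrease.

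Single samples moved these LV values. Without R14del-PLN replicate 3 the log2 fold changes were -0.50 for Sdf2l1, -0.48 for Hsp90b1, -0.43 for Pdia3, -0.42 for Pdia6 and -0.31 for Hspa5, and the median of the 10 was -0.39 beside -0.19 for all genes. The lowest limma adjusted p was then 0.156, with 0 of 10 called. Without R14del-PLN replicate 1 the median of the 10 was -0.09 beside -0.02 for all genes, with 8 of 10 below 0, and without WT-PLN replicate 3 it was -0.17 beside -0.02, with 9 of 10 below 0. Without both WT-PLN samples numbered 1, those low in Y-linked genes, it was -0.31 beside -0.15, with 10 of 10 below 0. With all samples kept, 8 of 8 fibroblast markers were below 0 in the LV, beside 71.7% of all genes, at a median log2 fold change of -0.36. Their summed levels were 316 to 574 TPM in WT-PLN against 253 to 400.1 TPM in R14del-PLN hearts. Of the 4 atrial markers tested, 4 were below 0, with summed levels of 207 to 1296 TPM in WT-PLN and 145 to 319 TPM in R14del-PLN hearts. Of 6 smooth muscle and pericyte markers, 5 were below 0, with sums of 175 to 396 and 152 to 241 TPM. In each of these lists the highest WT-PLN sum was that of replicate 3. Of the other lists, 5 of 8 cardiomyocyte, 2 of 6 endothelial and 6 of 7 macrophage markers were below 0. No marker of these lists was called, and their part in the differences of the ER genes was not tested.

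**Figure D3:**
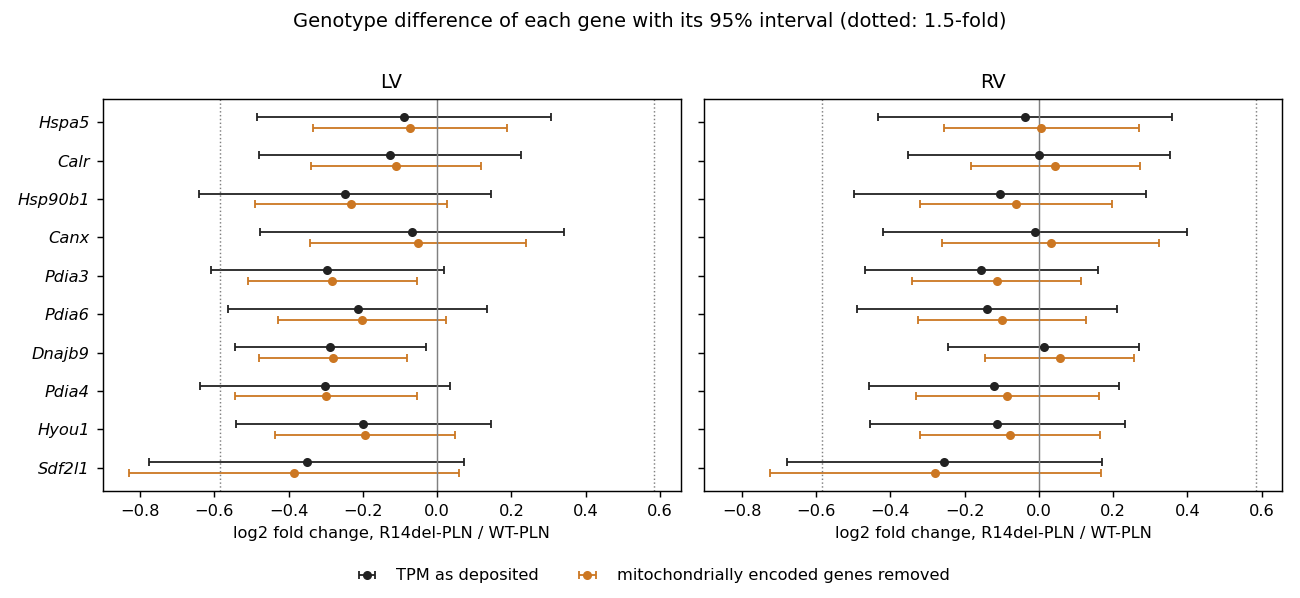
Log2 fold change between R14del-PLN and WT-PLN hearts with its 95% interval for each of the 10 genes in the LV and RV, from TPM as deposited (black) and after removal of mitochondrially encoded genes (orange). Dotted lines mark a 1.5-fold change. All LV points lie below 0. In the LV the black interval leaves out 0 for Dnajb9 and the orange one for Pdia3, Pdia4 and Dnajb9, and every RV interval includes 0.

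In the RV, 0 of 10 genes were called, against 0.271% of all genes, and 0 passed an unadjusted p of 0.05, against 6.22% of all genes. The log2 fold change was below 0 for 8 of the 10, against 50.9% of all genes, with a median of -0.11 for the 10 and -0.0034 for all genes. It was below 0 for 6 of 10 with quantile scaling or without mitochondrially encoded genes and for 7 of 10 with upper quartile scaling. The medians of the 10 were then -0.078, -0.070 and -0.085 in that order, beside 0.0098, 0.035 and 0.018 for all genes. Every limma adjusted p was 1. The interval lay inside a 1.5-fold change in both directions for 9 of the 10 genes, all but Sdf2l1.

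Hspa5 was at 186, 176 and 235 TPM in right ventricles of WT-PLN hearts and 181, 223 and 176 TPM in those of R14del-PLN hearts, so the genotypes overlapped almost completely. Its log2 fold change was -0.04 (95% interval -0.43 to 0.36). Calr (0.00068) and Canx (-0.01) were nearest to 0 on the log2 scale. Hsp90b1 was at -0.10, Hyou1 at -0.11, Pdia3 at -0.16, Pdia4 at -0.12 and Pdia6 at -0.14.

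Dnajb9, which separated in the LV, did not separate in the RV. The controls were at 14.6, 14.9 and 15.4 TPM and the mutants at 13.4, 17.2 and 14.9 TPM, for a log2 fold change of 0.01 (95% interval -0.24 to 0.27). The interaction, which is the RV genotype difference minus the LV one, was 0.30 for Dnajb9 (95% interval -0.06 to 0.66, limma adjusted p = 0.9999), so a difference between the ventricles in the effect of genotype was not shown. None of the 10 genes passed in the interaction (0 of 10 adjusted and 0 unadjusted with limma, against 0% and 1.01% of all genes), and 0 of 10 interaction values were below 0, against 25.7% of all genes. This count of values below 0 was 3 of 10 with quantile and with upper quartile scaling. Without replicate 1 of the LV of R14del-PLN hearts it was 5 of 10.

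Sdf2l1 was at 2.46, 2.67 and 2.43 TPM in control and 3.14, 1.43 and 1.55 TPM in mutant right ventricles. Mutant replicates 2 and 3 lay below all controls and replicate 1 above them. A log2 fold change of -0.25 (95% interval -0.68 to 0.17) became -0.50 without R14del-PLN replicate 1, with a limma adjusted p of 0.440.

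Replicate 2 of the RV of R14del-PLN hearts departed from the usual ratios among the genes. Its Canx (119 TPM), Calr (127 TPM), Hspa5 (223 TPM) and Dnajb9 (17.2 TPM) were the highest of the group, but its Pdia3 (35.1 TPM) and Sdf2l1 (1.43 TPM) were the lowest of all 12 samples. The ratio of Pdia3 to Canx, which work on the same glycoproteins, was 0.295 in that sample, against 0.399 to 0.548 in the other 11. The ratio of Sdf2l1 to Hspa5 was 0.00643 there and also low, at 0.00878, in replicate 3 of the same group, below a median of 0.0141 over the 12 samples. Replicate 2 also had the highest Myh6 of the 12 samples (8262 TPM). Its atrial markers summed to 521 TPM, against a median of 232 TPM. Whether these bear on the ratios was not tested.

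**Figure D4:**
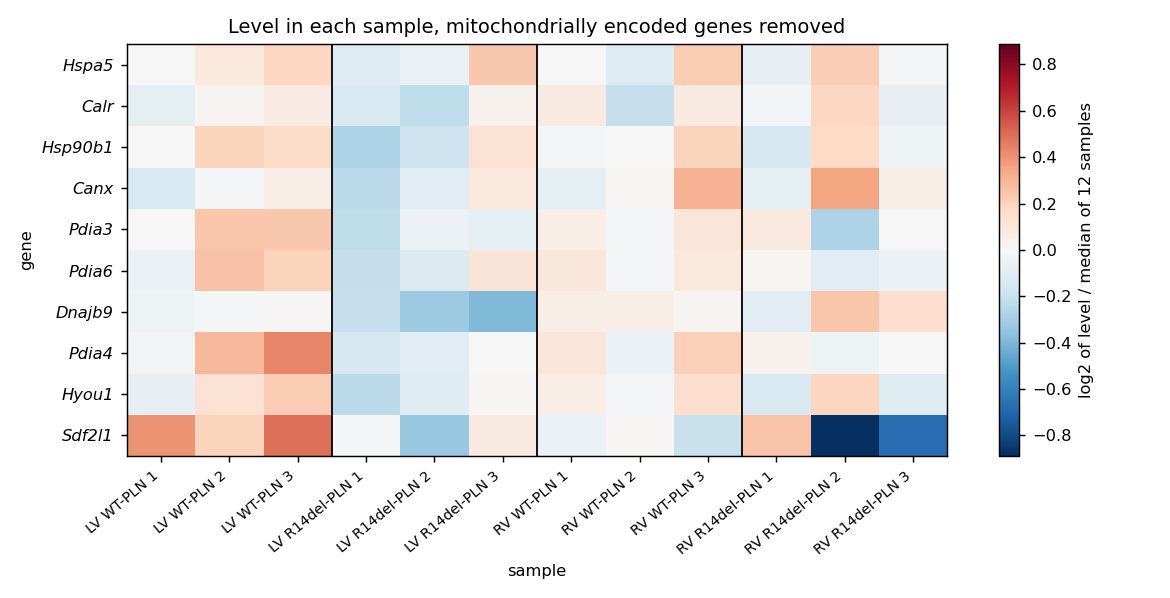
Level of each gene (rows) in each of the 12 samples (columns) as log2 of its ratio to the median of the 12, after removal of mitochondrially encoded genes. Red is above and blue below the median. LV replicates 1 and 2 of R14del-PLN hearts are below the median for all 10 genes, and RV replicate 2 of R14del-PLN hearts is high for Canx and Dnajb9 but lowest for Pdia3 and Sdf2l1.

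Levels were also compared between the ventricles of one genotype. In WT-PLN hearts, 0 of 10 genes were called by limma between RV and LV, against 0% of all genes, and 1 of 10 passed an unadjusted p of 0.05, against 14.5% of all genes. All 10 log2 differences, RV minus LV, were below 0, as were 85.9% of those of all genes, and their median of -0.20 was near that of all genes, -0.17. Under other scalings this pattern was lost, with 4 of 10 below 0 with quantile (median 0.01), 5 of 10 with upper quartile scaling (median -0.0028) and 8 of 10 without mitochondrially encoded genes (median -0.06). The mitochondrial share was 48.7% to 52.7% in the RV and 44.0% to 47.3% in the LV of these hearts. LV and RV samples with the same number deviated together in WT-PLN hearts, and in the paired fit, with a replicate block within genotype, 12 of all genes and 0 of the 10 were called.

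Sdf2l1 was the member that separated between the ventricles of WT-PLN hearts. All 3 RV samples (2.43 to 2.67 TPM) were below all 3 LV samples (3.28 to 4.27 TPM), which held in this direction for 25.2% of all genes. The log2 difference was -0.44 (95% interval -0.86 to -0.02, limma adjusted p = 0.331). For the other 9 genes the ranges overlapped.

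In R14del-PLN hearts, 0 of 10 genes were called by limma between the ventricles, against 0% of all genes, and 0 of 10 passed an unadjusted p, against 6.57%. The log2 difference was below 0 for 8 of 10 genes, against 70.3% of all genes, with a median of -0.07 for the 10 and -0.08 for all. The sign depended on the scaling: 1 of 10 was below 0 without mitochondrially encoded genes (median 0.08), 2 of 10 with quantile (median 0.05) and 4 of 10 with upper quartile scaling (median 0.02). In TPM as deposited Sdf2l1 differed most, with a log2 difference of -0.34 (95% interval -0.77 to 0.08, limma adjusted p = 0.838), and Dnajb9 and Canx were above 0. For Dnajb9, with 13.4 to 17.2 TPM in the RV and 11.7 to 14.2 TPM in the LV, the log2 difference was 0.23 (95% interval -0.03 to 0.48, limma adjusted p = 0.809).

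Since the mitochondrial share differed between samples, levels were recomputed as TPM after removal of the mitochondrially encoded genes. The sum of the 10 genes then ranged from 0.108% to 0.139% of the remaining transcripts. Replicate 3 of the LV of R14del-PLN hearts, at 0.132%, no longer stood above all other samples. It stayed above the other samples of its own group, at 0.108% and 0.112%, and was the highest of that group for 8 of the 10 genes. In this scale 0 of 10 genes were called in any of the 5 comparisons, with limma adjusted p of 0.207 or more. The 95% interval left out 0 for Pdia3, Pdia4 and Dnajb9 in the LV genotype comparison, or 3 of 10 against 14.3% of all genes at the same unadjusted threshold. It did so for Dnajb9 in the interaction, against 2.51% of all genes, and between the ventricles of R14del-PLN hearts, against 8.03%. It did so for 0 of 10 in the RV genotype comparison, against 10.9%, and between the ventricles of WT-PLN hearts, against 10.2%.

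**Figure D5:**
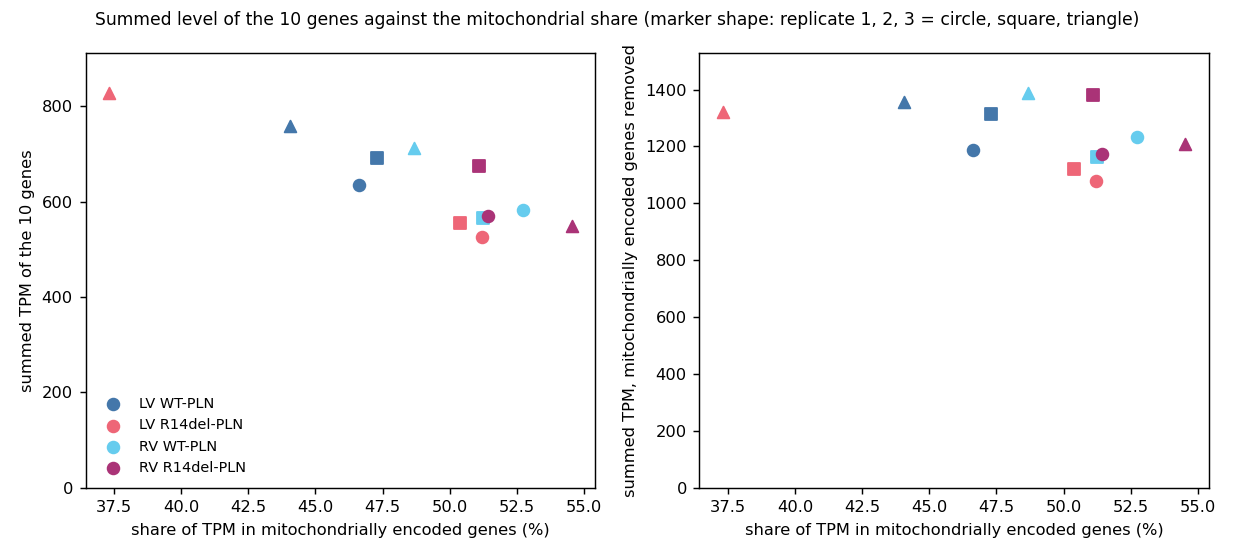
Summed TPM of the 10 genes in each of the 12 samples against the share of TPM in mitochondrially encoded genes, as deposited (left) and after removal of those genes (right). The sample with the lowest share, LV replicate 3 of R14del-PLN hearts at 37.3%, has the highest sum on the left (828 TPM) but not on the right. On the right it is still the highest of its group.

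In this scale the LV groups of Pdia3 were at 87.0 to 103 TPM in WT-PLN and 74.5 to 83.9 TPM in R14del-PLN hearts. Those of Dnajb9 were at 28.7 to 29.8 and 22.6 to 25.7 TPM, and those of Sdf2l1 at 6.23 to 7.63 and 4.298 to 5.73 TPM. All 3 genes thus separated by genotype in the LV, which held in this direction for 15.3% of all genes.

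Dnajb9 differed most between the ventricles of R14del-PLN hearts in this scale. It was at 27.7, 35.2 and 32.8 TPM in the RV and 25.7, 23.6 and 22.6 TPM in the LV, without overlap, as for 11.5% of all genes in this direction. The log2 difference was 0.39 (95% interval 0.19 to 0.59, limma adjusted p = 0.548). In WT-PLN hearts it was at 30.1 to 30.8 TPM in the RV and 28.7 to 29.8 TPM in the LV, also without overlap, as for 3.12% of all genes, and the log2 difference was 0.06 (limma adjusted p = 0.894). The interaction was 0.34 (95% interval 0.05 to 0.62, limma adjusted p = 0.990). Sdf2l1 stayed lower in all RV than in all LV samples of WT-PLN hearts, at 4.74 to 5.47 against 6.23 to 7.63 TPM, as for 12.0% of all genes.

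A ratio to Hspa5 does not depend on the total of a sample. By this measure Hsp90b1 was at 0.504, 0.538 and 0.494 of Hspa5 in the LV of WT-PLN and 0.448, 0.461 and 0.464 in the LV of R14del-PLN hearts, without overlap. The groups also separated for Pdia6, at 0.143 to 0.166 in WT-PLN and 0.137 to 0.143 in R14del-PLN hearts, and for Pdia4, at 0.0452 to 0.0545 and 0.0388 to 0.0450. The upper end for mutant Pdia6 (0.1425) and the lower end for its controls (0.1428) were nearly equal. Ratios to Hspa5 separated in this direction for 7.58% of all genes in the LV. Between the ventricles of R14del-PLN hearts, the ratios of Hsp90b1, Canx and Dnajb9 were higher in all RV than in all LV samples, as for 7.27% of all genes. In WT-PLN hearts this held for Canx, at 0.455 to 0.530 in the RV and 0.442 to 0.450 in the LV, and for 7.43% of all genes. A ratio shows unequal levels of both genes and not which of them moved.

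Other genes of the folding pathway were described from lists of known function. Of 52 other ER folding genes, such as further isomerases, prolyl isomerases and glucosidases, 49 were tested and 0 were called in either ventricle by genotype, with 4 lower and 0 higher at an unadjusted p in the LV, beside 9.60% of all genes, and 3 lower and 1 higher in the RV, beside 6.22%. Their median log2 fold change was -0.14 in the LV and -0.03 in the RV. Its highest genes were Calu, which encodes the calcium-binding protein calumenin, with LV means of 98.8 TPM in R14del-PLN and 103 TPM in WT-PLN hearts, and Serpinh1, the collagen chaperone HSP47, with 64.2 and 85.2 TPM (limma adjusted p = 0.939 and 0.460).

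Of 30 sensors and effectors of the unfolded protein response, 29 were tested and 2 were called, both lower in the LV of R14del-PLN hearts, beside 0.519% of all genes, and 0 were called in the RV, beside 0.271%. At an unadjusted p, 8 were lower and 1 higher in the LV, beside 9.60% of all genes. In the RV 5 were lower and 1 higher, beside 6.22%. Herpud1, which encodes an ER membrane protein of the degradation pathway, was at 154, 192 and 196 TPM in control and 88.6, 90.3 and 114 TPM in mutant left ventricles. The groups lay far apart, and Herpud1 fell by 0.88 on the log2 scale (standard error 0.15, limma adjusted p = 0.0191). In the RV its log2 fold change was -0.66 (limma adjusted p = 0.111).

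Chac1, which encodes a glutathione-degrading enzyme induced through ATF4, was at 3.01, 5.41 and 4.98 TPM in control and 0.931, 0.909 and 1.75 TPM in mutant left ventricles. It fell by 1.31 on the log2 scale in the LV (standard error 0.21, limma adjusted p = 0.0170), and its RV value was -0.96 (limma adjusted p = 0.104). The interaction of neither gene passed (0.22 for Herpud1 and 0.35 for Chac1 on the log2 scale, limma adjusted p = 0.9999), so the calls do not show a difference between the ventricles. The study itself names Chac1 from these samples, so its call is not independent evidence.

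A list of 20 heat shock genes, cytosolic but for the mitochondrial chaperonins Hspd1 and Hspe1, was tested in full and 0 were called in either ventricle. At an unadjusted p, 7 were lower and 0 higher in the LV, beside 9.60% of all genes, and 4 lower and 0 higher in the RV, beside 6.22%. Cryab, the small heat shock protein of muscle, had LV means of 1276 TPM in R14del-PLN and 1335 TPM in WT-PLN hearts (limma adjusted p = 0.912). Hspa8, the constitutive HSP70 of the cytosol, had LV means of 495 and 707 TPM and a log2 fold change of -0.50 (standard error 0.15, limma adjusted p = 0.222). Between the ventricles, 0 genes of these 3 lists were called in either genotype.

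The genes whose pattern was most like that of the 10 were sought among 6828 other genes averaging 5 TPM or more, after removal of mitochondrially encoded genes. The measure was the correlation over the 12 samples with the mean standardized log2 level of the 10 genes. The closest were Trappc12 (0.950), Ngly1 (0.944), Mybbp1a (0.921), Arih1 (0.912) and Fkbp9 (0.910). Ngly1 encodes the cytosolic enzyme that removes sugars from misfolded glycoproteins, and Fkbp9 an ER prolyl isomerase that is also on the list of ER folding genes. The 12 samples share ventricle, genotype and library differences, so these values describe likeness in these samples only.

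Reads of neighbouring genes could enter some values, since use of strand in counting is not stated. Pdia3 overlaps Catsper2 (mean 1.77 TPM), Hsp90b1 overlaps 1810014B01Rik (11.1 TPM) and Pdia6 overlaps Atp6v1c2 (0.0222 TPM), each on the opposite strand. No near-identical copy was found for any of the 10 genes among the annotated transcripts. On GRCm38 the highest of them, Hspa5, lies on chromosome 2 from 34771970 to 34777547 and the lowest, Sdf2l1, on chromosome 16 from 17130138 to 17132383, while Dnajb9 lies on chromosome 12 from 44205559 to 44210326.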

How the data were processed

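RNA sequencing values of 12 ventricle samples were used as deposited by the authors, 1 TPM value per gene and sample. The study names CLC Genomics Workbench 20.0.2 for mapping to GRCm38. The program and annotation behind the TPM values and the use of strand are not given in the sources used here. The values sum to 1000000 per sample, so depth and counting error are unknown.

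Groups, ventricles and replicate numbers came from the sample titles. The 10 genes, the pathway and marker lists and the alternatives were chosen with earlier results of these data known. Two-sided tests used limma 3.58.1 (R 4.3.3) with moderated variances that follow a trend over level, on log2(TPM + 1) of the 12526 genes averaging 0.5 TPM or more, in 1 model of 4 group means over all 12 samples. P-values were adjusted by Benjamini-Hochberg over all tested genes. Calls needed an adjusted p of 0.05 or less and a change of 1.5-fold or more, as in the study. Genotypes were compared in each ventricle, ventricles in each genotype, and the interaction was tested. The model was tested on simulated data. Named genes were the 10 members, the called genes of each pathway list or otherwise its 2 highest genes, and the 5 genes of most similar pattern. Heat shock genes that the study names were added.

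As a check of pairing, the deviations of same-numbered samples from their group means were correlated. LV and RV of WT-PLN hearts gave 0.321 to 0.658, against -0.457 to 0.00082 for samples of unlike number. LV and RV of R14del-PLN hearts gave 0.0542 to 0.389, against -0.396 to 0.160 for unlike numbers. The genotypes gave -0.0209 to 0.156 in LV and 0.0610 to 0.219 in RV. Numbers were taken as paired only in the alternative with a replicate block within genotype. The main model has no block, so its intervals and p-values between ventricles ignore any pairing.

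Alternatives were pseudocounts of 0.5 and 0.1, a filter at 1 TPM and none, scaling by quantiles or by the upper quartile, leaving out the 13 mitochondrially encoded genes, the 6 samples of a comparison alone, no trend, 2 kinds of replicate block, no fold threshold, each sample left out, and both WT-PLN samples numbered 1 left out. After values were seen, removal of mitochondrially encoded genes together with each kind of block was added. Promoter sequences were from the RefSeq table of GRCm38.p6, gene positions from GENCODE, and near-identical transcripts were sought with BLAST 2.17.0 (95% identity over 80% of the shorter). Python 3.11.15 with pandas 2.3.3 and matplotlib 3.10.9 was used otherwise. No 2 samples held identical values.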

Additional observations from a re-analysis of the deposited data

How the results depend on the processing

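Each comparison called 0 of the 10 genes under all alternatives. The lowest limma adjusted p of a member was 0.156 in the LV and 0.440 in the RV genotype comparison. In the LV, 8 genes, and in the RV, 6 genes kept the sign of their log2 fold change in all 26 alternatives. With quantile normalization, Hspa5 (0.0019) and Canx (0.040) turned above 0 in the LV, as did Hspa5 (0.055) and Canx (0.049) in the RV. With upper quartile scaling Hspa5 (0.031) and Canx (0.052) did so in the LV and Canx (0.014) in the RV. Without mitochondrially encoded genes, with or without a replicate block, Hspa5 (0.0064) and Canx (0.032) did so in the RV. Without both WT-PLN samples numbered 1, Dnajb9 was at -0.0056 in the RV. With single samples left out, LV values ran from -0.31 to 0.042 for Hspa5 and -0.27 to 0.071 for Canx, and RV values from -0.14 to 0.088 for Hspa5, -0.15 to 0.13 for Canx, -0.10 to 0.084 for Calr and -0.074 to 0.092 for Dnajb9.

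The LV split of calls into higher and lower was 12 and 53 as deposited, 39 and 65 with quantile and 35 and 64 with upper quartile scaling, and the RV split 9 and 25, 29 and 56, and 32 and 55, with 30 and 42 without mitochondrially encoded genes.

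Calls over all genes depended more on the processing, and the cause was not tested. In the LV, 65 calls became 22 with no filter, 104 with quantile and 99 with upper quartile scaling, 119 with a replicate block (134 without mitochondrially encoded genes), 231 without both WT-PLN samples numbered 1, and 19 to 153 with single samples left out. In the RV, 34 became 17, 85 and 87 in the same order, 72 without mitochondrially encoded genes, 62 with a replicate block (87 with both), 88 without the samples numbered 1, and 14 to 48. Between ventricles of WT-PLN hearts, 0 became 1 with no filter, 2 without mitochondrially encoded genes, 1 with the 6 samples alone, 12 with the replicate block within genotype (3 without mitochondrially encoded genes), 1 with a replicate block without those genes, 2 without the samples numbered 1, and 0 to 4 with single samples left out. In R14del-PLN hearts and in the interaction, single samples left out gave 0 to 1. The replicate block changed no call of the 10 genes. Since TPM keeps no depth, counting error could not be separated from the spread of replicates.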
